A study of Mus musculus with 24 samples.

Results

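The genes described here are 36 mouse genes of the unfolded protein response and of protein folding in the secretory pathway, chosen by name from the 55487 genes of a table of mammary gland RNA. The rule names them by function, with earlier results of these data known. They fall into 6 roles. There are 9 chaperones and co-chaperones of the endoplasmic reticulum, 6 lectin chaperones and disulfide isomerases, 7 stress sensors and transcription factors, 7 genes of the degradation route for misfolded proteins, 4 genes of translocation and transport, and 3 prolyl isomerases. All 36 had at least 1 TPM (the share of a library that falls to a gene's transcripts, corrected for their length) in each of the 24 libraries, so a filter on low values removed none of them.

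Proteins bound for secretion or for membranes enter the endoplasmic reticulum, where chaperones and isomerases fold them and a degradation route removes those that fail. When misfolded proteins accumulate, the membrane sensors IRE1 (gene Ern1), PERK (Eif2ak3) and ATF6 (Atf6) raise transcription of these same folding genes, through the factors XBP1, ATF4 and cleaved ATF6. Secretory tissue, including the milk-producing alveoli of the mammary gland and the plasma cells that lie in it, carries a large share of this machinery. IRE1 activates XBP1 by cutting its transcript. A gene-level table does not separate the cut and uncut forms, so the values below give the amount of Xbp1 RNA and not its processing.

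The mice carried MMTV-rtTA, an activator driven by the mouse mammary tumour virus promoter, and a transgene that it switches on: tet-op-CYP19A1 (aromatase, the enzyme that forms oestrogens) or tet-op-Esr1 (oestrogen receptor alpha). Each line gave 4 groups of 3 mice. These were mice of 20 months with a subcutaneous tamoxifen pellet (25 mg released over 60 days, implanted at 18 months), mice of 20 months with a letrozole pellet (2.5 mg over 60 days, likewise), mice of 20 months with neither drug, and mice of 18 months. The transgene had been induced for 8 months in the 20-month mice and for 6 months in the 18-month mice. The labels of the 18-month mice bear the tag Doxy, read here as doxycycline, and those of the 20-month mice do not. Letrozole inhibits aromatase, and tamoxifen acts on the oestrogen receptor. Mice without a transgene were not analysed here, so both lines share the rtTA activator and an induced transgene, and nothing below is set against a normal gland. The 20-month mice with neither drug bear a tag, PLA, that the labels do not explain, and they are called untreated here. The labels call the mice of a group biological replicates, numbered 1 to 3, and values below follow that order.

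Some facts of the libraries bear on the values. Esr1 RNA lay between 6.98 and 19.19 TPM across the 24 libraries and mouse Cyp19a1 at 0.27 TPM or less, so the labelled lines could not be told from these genes. Levels of mouse Cyp19a1 do not tell whether the CYP19A1 transgene was expressed. The depth of the libraries is unknown, since TPM holds no read number, and every value is a share that moves with the abundant RNAs of its library. The genes Rn7s1 and Rn7s2 took 19.9% to 38.8% of a library, mitochondrial transcripts 9.82% to 27.9%, and protein-coding genes 29.7% to 39.7%. Nuclear ribosomal RNA took 17.4% of replicate 2 of the untreated Esr1 mice, against a median of 0.0577% over the libraries. The mean level of 12 skeletal muscle markers, as log2(TPM + 1), was 1.34 in replicate 3 of the CYP19A1 mice of 18 months and 3.47 in replicate 1 of the Esr1 mice of 18 months, against a median of 10.1. Of the mammary gland's own defining markers, none of 9 milk-secreting, 9 luminal and 8 basal or myoepithelial markers was at 0 in every library of a group.

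Some promoters of these genes carry the element through which the response is known to act. The endoplasmic reticulum stress response element (ERSE) has the letters CCAAT and CCACG with any 9 bases between them, and it was searched on both strands in the 250 bases before each gene's start in RefSeq's GRCm38.p6, the assembly that the build name mm10 in the submitters' notes also denotes. A promoter was matched by symbol for 31 of the 36 genes, all but Hyou1, Atf6, Manf, Sec61a1 and Derl1. The element was present in 9 of the 31 (29%) and in 35 of all 27025 genes with a promoter (0.13%). The 36 were named as genes of this response, so the contrast is not independent of that choice. A second form, ERSE-II, has ATTGG and CCACG with any 1 base between them and was present in Herpud1 and in 0.037% of all promoters. The sites are shown with 15 bases on each side, 5′ to 3′ on the strand of the gene, with the element in capitals; where the capitals begin with CGTGG, the element runs on the opposite strand. They are printed because they are what the 9 genes with the ERSE share in sequence, with the ERSE-II of Herpud1 beside them. The other 22 promoters lacked the ERSE.
Hspa5, chr2:34772010-34772058 (+ strand): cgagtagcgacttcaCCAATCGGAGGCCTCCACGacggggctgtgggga
Hsp90b1 site nearer the start, chr10:86705518-86705566 (- strand): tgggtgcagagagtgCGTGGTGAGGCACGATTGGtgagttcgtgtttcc
Hsp90b1 site farther from the start, chr10:86705623-86705671 (- strand): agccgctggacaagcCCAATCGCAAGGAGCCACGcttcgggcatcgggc
Dnajc3, chr14:118937812-118937860 (+ strand): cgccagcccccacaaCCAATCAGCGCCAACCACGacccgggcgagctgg
Creld2, chr15:88819505-88819553 (+ strand): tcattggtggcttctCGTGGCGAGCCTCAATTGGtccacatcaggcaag
Calr, chr8:84847060-84847108 (- strand): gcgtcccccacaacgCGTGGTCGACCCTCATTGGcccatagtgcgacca
Canx, chr11:50325785-50325833 (- strand): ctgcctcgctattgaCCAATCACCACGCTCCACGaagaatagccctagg
Pdia6, chr12:17266476-17266524 (+ strand): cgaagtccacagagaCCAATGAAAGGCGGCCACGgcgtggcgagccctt
Syvn1, chr19:6046517-6046565 (+ strand): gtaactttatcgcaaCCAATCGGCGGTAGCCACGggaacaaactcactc
Derl3, chr10:75893227-75893275 (+ strand): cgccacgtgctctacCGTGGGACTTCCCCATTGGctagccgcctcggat
Herpud1 (ERSE-II), chr8:94386362-94386402 (+ strand): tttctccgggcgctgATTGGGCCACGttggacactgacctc

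The elements lay between 25 bases (Syvn1) and 193 bases (the farther site of Hsp90b1) before the start. The 2 ends of the element were common by themselves, since CCAAT was in 80.6% of the 31 promoters and 37.5% of all, and CCACG in 74.2% and 31% of them. The letters TGACGTGG, a site that XBP1 and ATF6 are known to bind, were in none of the 31 promoters and in 0.603% of all. TGATGNAAN, a form of the site of ATF4, was in Herpud1 alone of the 31 and in 3.89% of all. The whole window before Hspa5, on the forward strand at chr2:34771840-34772089, is shown because Hspa5 encodes BiP, the central chaperone of the response; further CCAAT letters precede the full element in it.
Hspa5 promoter window: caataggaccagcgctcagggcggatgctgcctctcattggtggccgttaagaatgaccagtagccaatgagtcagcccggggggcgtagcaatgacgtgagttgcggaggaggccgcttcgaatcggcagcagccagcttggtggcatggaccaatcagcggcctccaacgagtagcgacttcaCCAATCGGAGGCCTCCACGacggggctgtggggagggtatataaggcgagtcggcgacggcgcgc

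In level the 36 genes differed widely, with the folding enzymes highest and the sensors low. Calr, a lectin chaperone that binds calcium, was the most abundant with a mean of 153 TPM over 24 libraries (SD 52.6). Hspa5 (115 ± 43.1 TPM), P4hb (113 ± 22.3 TPM), Hsp90b1 (109.8 ± 33.3 TPM), Xbp1 (98.8 ± 43.0 TPM), Canx (93.7 ± 20.3 TPM) and Ppib (91.4 ± 21.5 TPM) followed. The lowest were Trib3, an ATF4-induced pseudokinase, at 2.08 ± 0.45 TPM, and Derl3, a degradation channel subunit known from secretory cells, at 2.93 ± 1.15 TPM (SD, n = 24 throughout). The sensors had 10.1 ± 1.39 TPM for Atf6, 9.0 ± 2.5 TPM for Eif2ak3 and 7.26 ± 1.72 TPM for Ern1.

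The genes differed in how steady they were. The coefficient of variation over the 24 libraries had a median of 25.5% over the 36 genes and of 27.2% over the 19325 genes tested. Fkbp11, a prolyl isomerase of secretory cells, varied most, at 106%, with a range of 1.54 to 34.89 TPM, and stood at the 94.4th percentile of the genes tested. Atf4 varied least, at 11.6% and the 1.12th percentile. Sdf2l1 (44.1%), Xbp1 (43.5%), Creld2 (42.2%) and Manf (41.7%) were the next most variable, and Atf6 (13.8%) and Dnajb9 (15.6%) were steady.

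Most of the 36 shared their highest and their lowest group. The group mean was highest in CYP19A1 mice of 18 months for 27 genes and lowest in CYP19A1 mice on letrozole for 27. Counting in each library the genes above their own median over 24 libraries, the CYP19A1 mice of 18 months had 35, 34 and 32 of 36, and the Esr1 mice of 18 months had 22, 32 and 33. CYP19A1 mice on letrozole had 3, 6 and 2, and Esr1 mice on letrozole had 9, 3 and 7. The tamoxifen groups were mixed, with 27, 19 and 13 in CYP19A1 and 0, 28 and 10 in Esr1. Untreated mice of 20 months had 25, 11 and 8 in CYP19A1 and 30, 22 and 21 in Esr1. Replicate 3 of the CYP19A1 mice on letrozole was the lowest library for 19 of the 36 genes. These counts were not made over all genes, and most genes tested moved the same way. From 18 to 20 months in untreated CYP19A1 mice, 76.4% of all genes tested and 94.4% of the 36 had a difference below 0. For letrozole against no drug in that line, the shares were 72.8% and 86.1%.

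**Figure D1:**
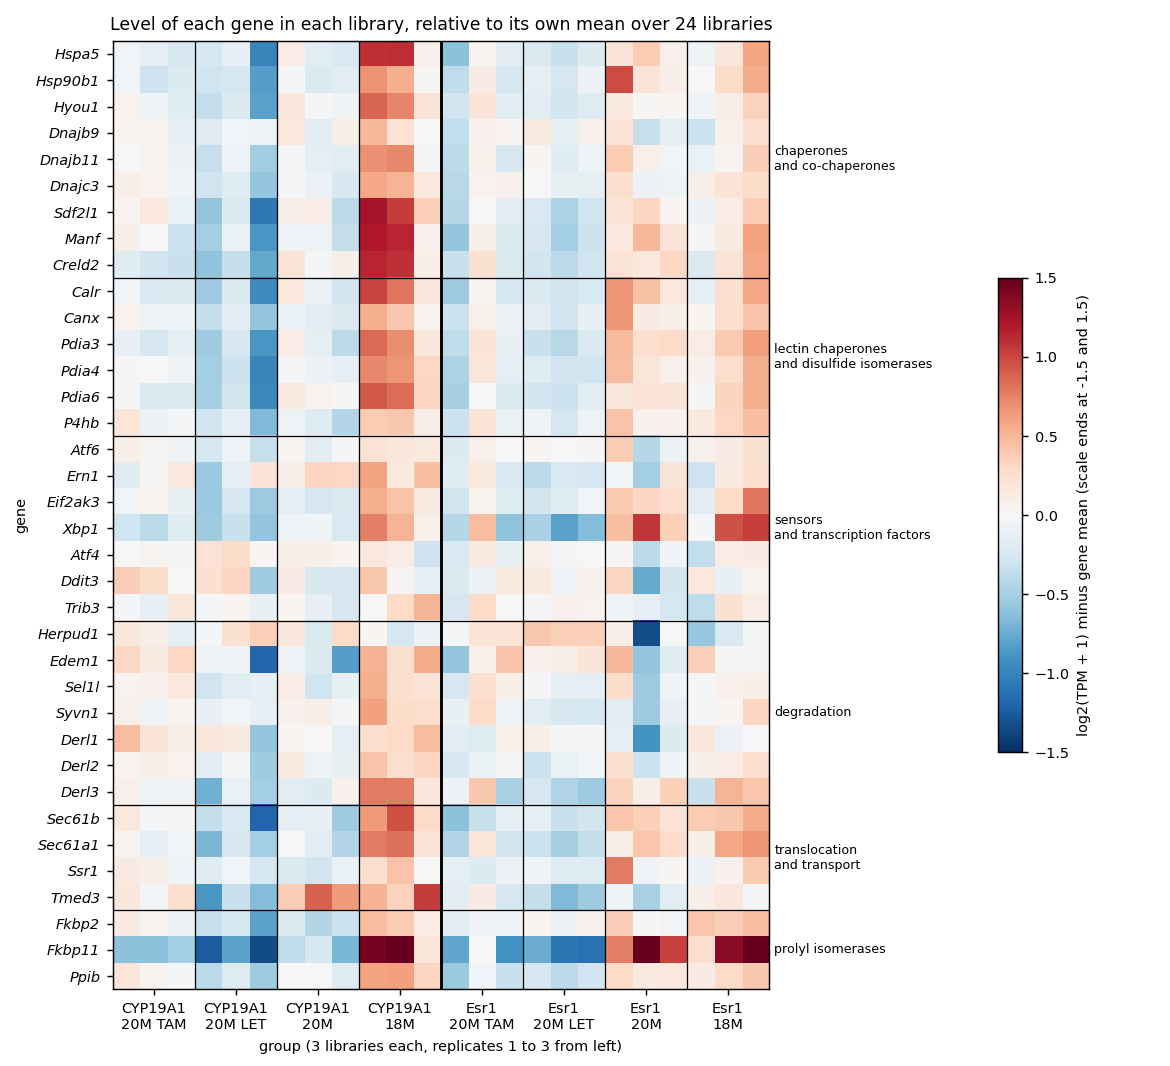
Level of each of the 36 genes (rows, grouped by role) in each of 24 libraries (columns, 3 per group), as log2(TPM + 1) minus the gene's mean over the libraries; red is above and blue below that mean. Replicates 1 and 2 of the CYP19A1 mice of 18 months are red in nearly every row, the letrozole libraries are mostly blue, and Fkbp11 has the strongest colours.

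The comparison of 20 with 18 months asks what 2 further months of age and induction did in untreated mice. Only the mice of 20 months bear the unexplained tag PLA, and only those of 18 months the tag Doxy. Whatever the tags stand for cannot be told apart from age. In the CYP19A1 line 14 of the 36 genes fell past the threshold and none rose (limma, Benjamini-Hochberg adjusted p under 0.05), among 6.45% of the 19325 genes tested that fell and 9.45% that changed in either direction. The 14 were 5 of 9 chaperones and co-chaperones, 3 of 6 lectin chaperones and disulfide isomerases, 1 of 7 sensors and factors, 2 of 4 translocation genes, 3 of 3 prolyl isomerases and none of 7 degradation genes. The log2 difference had a median of -0.57 over the 36 genes, against -0.23 over all genes tested, and was below 0 for 34. The groups did not overlap for 26 of the 36, all lower at 20 months, among 33.8% of all genes. In RNA of a whole gland, fewer cells of a type and less RNA per cell cannot be told apart.

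Among the chaperones, Hspa5 had 118, 97.4 and 92.8 TPM in CYP19A1 mice of 20 months, against 235, 236 and 114 TPM at 18 months. Its log2 difference was -0.85 ± 0.26 (SE, limma adjusted p = 0.045). The high values of 18 months were those of replicates 1 and 2, and replicate 3 was just below the highest mouse of 20 months, so the groups overlapped. Manf, a BiP-binding protein that stressed cells secrete, had 26.8, 26.3 and 21.5 TPM at 20 months, against 65.4, 62.8 and 29.2 TPM at 18 months, a log2 difference of -0.97 ± 0.26 (SE, limma adjusted p = 0.0282). Sdf2l1, a partner of the co-chaperone DNAJB11, had 6.97, 7.12 and 4.72 TPM at 20 months, against 16.7, 14.5 and 8.66 TPM at 18 months, a log2 difference of -0.95 ± 0.22 (SE, limma adjusted p = 0.0184). For both genes every mouse of 20 months was below every mouse of 18 months, and replicate 3 of 18 months was again closest to them.

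Dnajc3, a co-chaperone that also restrains PERK, had 18.1, 17.2 and 15.5 TPM at 20 months, against 28.1, 26.8 and 20.8 TPM at 18 months, a log2 difference of -0.54 ± 0.15 (SE, limma adjusted p = 0.0321). Hyou1, the exchange factor of BiP, also fell, with 21.8, 18.8 and 18.5 TPM at 20 months and 36.1, 32.6 and 22.2 TPM at 18 months. The other chaperones missed the threshold with log2 differences of -0.55 for Hsp90b1, the HSP90 of the endoplasmic reticulum, -0.21 for Dnajb9, -0.57 for Dnajb11 and -0.70 for Creld2, a stress-induced disulfide isomerase.

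The disulfide isomerases, which form and rearrange disulfide bonds, showed the same order of groups. Pdia3, which works with the lectin chaperones on glycoproteins, had 68.2, 56.8 and 47.7 TPM at 20 months, against 114, 103 and 71.4 TPM at 18 months, a log2 difference of -0.72 ± 0.20 (SE, limma adjusted p = 0.0319). Pdia4 had 35.9, 34.6 and 33.7 TPM at 20 months, against 60.98, 58.6 and 45.8 TPM at 18 months, a log2 difference of -0.64 ± 0.18 (SE, limma adjusted p = 0.0334). The groups were separate for both genes. Pdia6 fell as well, by 0.64 on the log2 scale. Calr and Canx, the lectin chaperones, and P4hb, the classical isomerase, had log2 differences of -0.73, -0.49 and -0.53 and missed the threshold, Calr with an adjusted p of 0.0521 in limma.

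Genes of translocation and of proline isomerisation fell as well. Sec61b, a small subunit of the translocation channel, had 27.2, 27.3 and 20.2 TPM at 20 months, against 46.6, 58.3 and 36.3 TPM at 18 months, a log2 difference of -0.88 ± 0.21 (SE, limma adjusted p = 0.0186). Sec61a1, the pore of the channel, had 35.4, 31.8 and 26.1 TPM at 20 months, against 61.7, 64.2 and 40.97 TPM at 18 months, a log2 difference of -0.80 ± 0.20 (SE, limma adjusted p = 0.0207). No mouse of 20 months reached a mouse of 18 months in either gene. Ssr1, a subunit of the complex that assists the channel, had a log2 difference of -0.43 and Tmed3, a cargo receptor between the endoplasmic reticulum and the Golgi apparatus, one of -0.01; neither passed.

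Fkbp2 had 13.9, 11.6 and 12.7 TPM at 20 months, against 22.7, 21.4 and 17.5 TPM at 18 months, a log2 difference of -0.64 ± 0.14 and the smallest adjusted p of the 36 genes (0.0158, limma). Ppib, cyclophilin B, had 89.4, 88.7 and 77.5 TPM at 20 months, against 136, 137 and 112 TPM at 18 months, a log2 difference of -0.58 ± 0.14 (SE, limma adjusted p = 0.0227). Both are isomerases of the lumen, and their groups were separate. Fkbp11 had 3.97, 4.49 and 3.03 TPM at 20 months, against 16.4, 22.4 and 6.35 TPM at 18 months, a log2 difference of -1.59 ± 0.44 (SE, limma adjusted p = 0.032), the steepest of the 36 in this comparison.

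Of the sensors, Eif2ak3 fell, with 7.81, 7.16 and 7.34 TPM at 20 months and 13.2, 12.1 and 9.71 TPM at 18 months. Xbp1 had 88.1, 86.9 and 77.8 TPM at 20 months, against 155, 131 and 96.2 TPM at 18 months; the groups were separate, with a log2 difference of -0.56 ± 0.28 (SE) that did not pass (limma adjusted p = 0.179). The genes downstream of PERK had log2 differences of 0.08 for Atf4, -0.23 for Ddit3, the gene of CHOP, and -0.39 for Trib3, none past the threshold. The degradation genes Herpud1, Edem1, Sel1l, Syvn1, Derl1, Derl2 and Derl3, which recognise, ubiquitinate and extract misfolded proteins, had log2 differences of 0.19, -0.81, -0.43, -0.34, -0.37, -0.35 and -0.67, none past the threshold.

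The count of 14 rested on single libraries and on scaling. It was 0 without replicate 1 of 18 months or without replicate 3 of 20 months, 1 without replicate 2 of 18 months and 2 without replicate 2 of 20 months, 8 without replicate 1 of 20 months, and 21 without replicate 3 of 18 months, the library with little muscle. It was 0 in a fit of these 2 groups alone, 5 with no filter on low values, and 11 with a pseudocount of 0.1, where Hspa5, Hyou1 and Eif2ak3 no longer passed. The median over all genes was also below 0. With median-ratio scaling, in which this median was -0.02, no member passed as lower and Atf4 passed as higher. The 36 then had a median of -0.30. Sdf2l1 and Fkbp2 passed as lower when the total left out the 100 most abundant genes and all mitochondrial, Rn7s and ribosomal RNA genes. Other tissue moved with age in this line. Summed muscle markers were at 18295 to 31434 TPM at 20 months, against 23.2 to 6841 TPM at 18 months, with 2 of 12 higher. Plasma cell markers summed to 973 to 1247 TPM at 20 months and 1693 to 1727 TPM at 18 months, with 1 of 12 lower. Milk-secreting markers summed to 109.96 to 1709.96 TPM at 20 months and 1586 to 18979.6 TPM at 18 months, with none of 9 past the threshold. T and NK cell markers summed to 10.9 to 21.1 TPM at 20 months and 40.7 to 94.3 TPM at 18 months, with 9 of 9 lower. Proliferation markers summed to 28.3 to 40.4 TPM at 20 months and 54.9 to 127 TPM at 18 months, with 7 of 8 lower. Mitochondrial transcripts took 21.0% to 27.9% of the libraries at 20 months and 13.7% to 17.5% at 18 months. The part of these shifts in the result was not tested. For the alternatives, the number of all genes that passed is given only for median-ratio scaling in this comparison, at the end. The other counts of the 36 under alternatives, here and below, lack that measure beside them. In a fit with the muscle level as a covariate 25 of the 36 passed as lower. That level was 10.2, 9.96 and 10.8 at 20 months and 7.71, 8.62 and 1.34 at 18 months. The 2 ages did not overlap in it, so this fit cannot separate muscle from age.

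**Figure D2:**
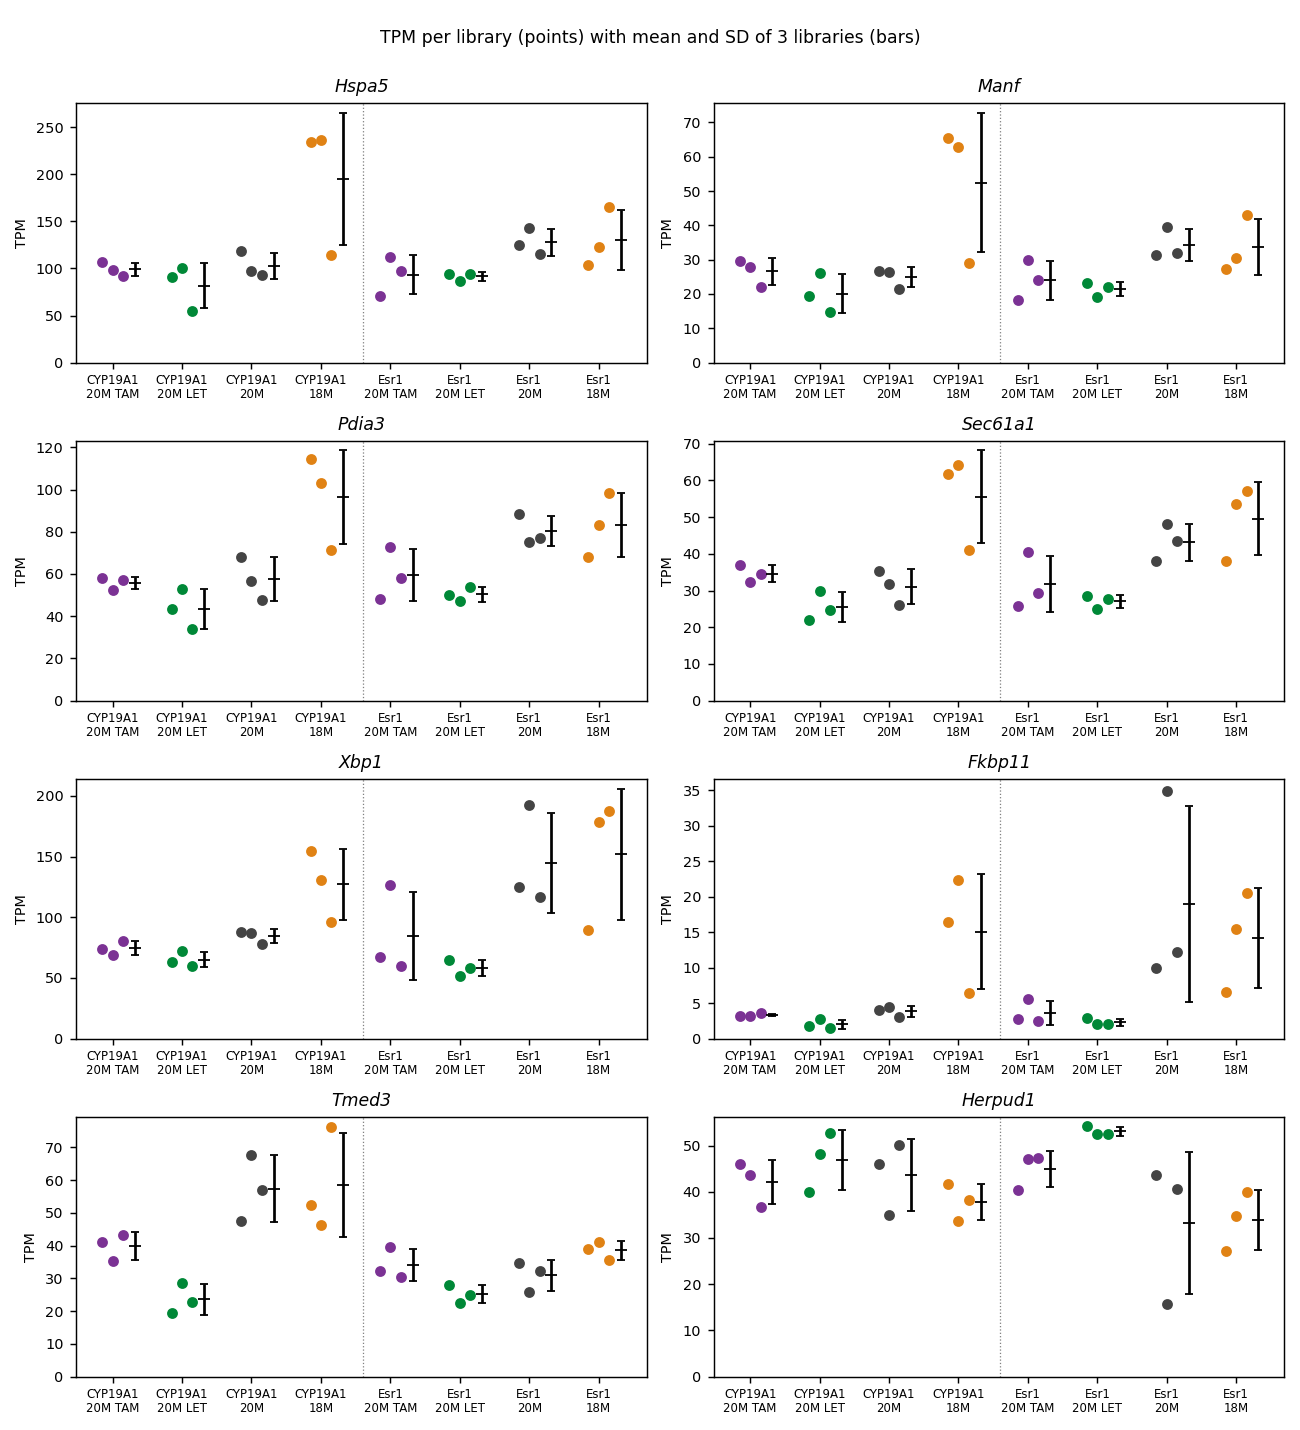
TPM of 8 genes in every library (points, one per mouse) with the mean and SD of each group of 3 (bars), CYP19A1 groups left of the dotted line and Esr1 groups right of it. Hspa5 and Manf stand out in replicates 1 and 2 of the CYP19A1 mice of 18 months, Fkbp11 and Xbp1 are low in all letrozole mice, and Tmed3 is highest in CYP19A1 mice without a drug.

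In the Esr1 line none of the 36 genes passed for age, among 0.00517% of all genes, which is 1 gene (limma). In that comparison 3 of the 36 and 1214 of all genes had an unadjusted p under 0.05. Hspa5 had 125, 143 and 115 TPM in Esr1 mice of 20 months, against 103, 123 and 166 TPM at 18 months, and the groups overlapped, with a log2 difference of -0.01 ± 0.26 (SE). The 3 smallest p-values were those of Syvn1, Derl1 and Fkbp2, with log2 differences of -0.38 ± 0.14, -0.44 ± 0.19 and -0.30 ± 0.14 (SE) and an adjusted p of 0.73 each in limma. Syvn1, the ubiquitin ligase of the degradation route, had 6.9, 5.13 and 7.1 TPM at 20 months, against 7.73, 8.01 and 10.03 TPM at 18 months. It was 1 of 4 genes that were lower at 20 months without overlap, beside Derl1, Tmed3 and Fkbp2, among 4.94% of all genes. The median over the 36 was -0.09, against -0.14 over all genes, with 25 below 0; under median-ratio scaling 8 were below 0, so no direction is given for the whole.

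The age difference was not shown to differ between the lines. For the difference of the 2 age effects, CYP19A1 minus Esr1, none of the 36 passed, and 1 of the 19325 genes did (0.00517%, limma). An unadjusted p under 0.05 was found for 18 of the 36 and for 1652 of all genes. The smallest p-values were those of Sdf2l1 (-0.99 ± 0.32, SE, adjusted p = 0.44), Fkbp11 (-1.90 ± 0.62, adjusted p = 0.44) and Calr (-0.93 ± 0.33, adjusted p = 0.471) in limma.

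**Figure D3:**
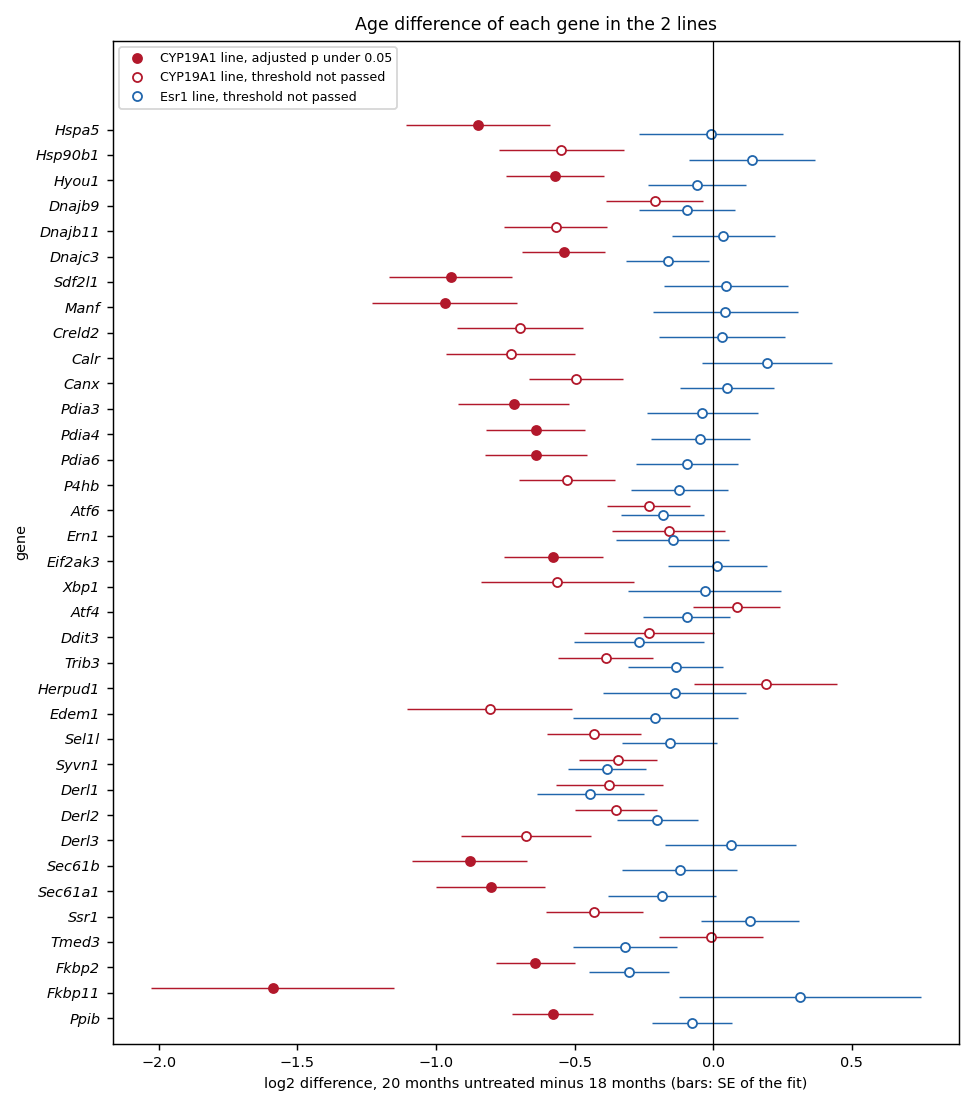
Age difference of each gene, 20 months untreated minus 18 months, as log2(TPM + 1) with the SE of the fit, for the CYP19A1 line (red, upper of each pair) and the Esr1 line (blue, lower). The 14 filled red points passed the threshold, no blue point did, and Fkbp11 has the red point farthest from 0, with its blue point on the other side of 0.

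Letrozole was compared with no drug at 20 months to ask what 2 months of the drug did. In the Esr1 line 5 of the 36 genes fell and none rose, among 5.81% of all genes that fell and 8.65% that changed. They were Fkbp11, Xbp1, Ppib, Sec61a1 and Pdia3. The median over the 36 was -0.36, against -0.01 over all genes. The groups did not overlap for 20 genes that were lower on letrozole and 3 that were higher, among 16.5% and 11.2% of all genes.

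Fkbp11 had 2.86, 2.05 and 1.98 TPM in Esr1 mice on letrozole, against 9.93, 34.9 and 12.1 TPM in untreated Esr1 mice. Its log2 difference was -2.40 ± 0.44 (SE, limma adjusted p = 0.00461). The groups were far apart even without replicate 2 of the untreated mice, the library with much ribosomal RNA and the highest Fkbp11 of all, where the difference was -1.87 and the adjusted p 0.0272. The gene lies on chromosome 15 (98724368 to 98728198).

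Xbp1, the transcription factor that secretory cells need to build their endoplasmic reticulum, had 64.8, 51.8 and 57.8 TPM on letrozole, against 125, 192 and 117 TPM untreated, a log2 difference of -1.27 ± 0.28 (SE, limma adjusted p = 0.0102). The highest letrozole mouse was well below the lowest untreated mouse. Without replicate 2 of the untreated mice the difference was -1.05 with an adjusted p of 0.0509, and without replicate 2 of the letrozole mice it was -1.19 with an adjusted p of 0.0592. The gene lies on chromosome 11 (5520641 to 5525993).

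Ppib had 75.4, 67.5 and 73.02 TPM on letrozole, against 110.2, 97.6 and 99.7 TPM untreated, a log2 difference of -0.50 ± 0.14 (SE, limma adjusted p = 0.0361). Sec61a1 had 28.4, 24.9 and 27.7 TPM on letrozole, against 37.96, 48.04 and 43.4 TPM untreated, a log2 difference of -0.65 ± 0.20 (SE, limma adjusted p = 0.0429). Pdia3 had 50.0, 47.1 and 54.05 TPM on letrozole, against 88.3, 75.2 and 76.95 TPM untreated, a log2 difference of -0.66 ± 0.20 (SE, limma adjusted p = 0.0447). All 3 groups of letrozole values were tight and lay below the untreated ones.

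Herpud1, a stress-induced organiser of the degradation complex, went the other way without passing. It had 54.2, 52.4 and 52.5 TPM on letrozole, against 43.7, 15.6 and 40.5 TPM untreated, a log2 difference of 0.78 ± 0.26 (SE, limma adjusted p = 0.0617), and the lowest value was that of the untreated library with much ribosomal RNA. Derl1 (0.44) and Trib3 (0.18) were the other genes without overlap that were higher on letrozole. The chaperones had log2 differences from -0.64 (Manf) to 0.13 (Dnajb9), with 8 of 9 below 0 and none past the threshold, and the degradation genes had 5 of 7 above 0. Summed, the degradation genes had 151, 146 and 149 TPM on letrozole, against 155, 78.5 and 130 TPM untreated. The 78.5 TPM was again that of the library with much ribosomal RNA, and the other untreated sums lay on both sides of the letrozole values.

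The number of genes that passed for letrozole in the Esr1 line moved with the processing, always with more lower than higher. It was 1 (Fkbp11) without replicate 2 of either group, and 2 to 4 without another library of them. With median-ratio scaling 13 passed as lower, among them all of the 5, and Herpud1 passed as higher (adjusted p 0.00408 in limma). The counts were the same when the total left out the 100 most abundant genes and all mitochondrial, Rn7s and ribosomal RNA genes. With the muscle level as a covariate 17 passed as lower, and in a fit of these 2 groups alone Xbp1 and Fkbp11 did. That level was 10.56 to 10.71 on letrozole and 8.26 to 10.04 untreated. The groups did not overlap in it, so the covariate fit cannot separate muscle from the drug. Markers of several cell types moved alongside. Milk-secreting markers summed to 82.5 to 385 TPM on letrozole and 8871 to 42692 TPM untreated, with 9 of 9 lower. Luminal markers summed to 135 to 194 TPM on letrozole and 467 to 571 TPM untreated, with 7 of 9 lower. Plasma cell markers summed to 729.5 to 1519.7 TPM on letrozole and 604 to 2469 TPM untreated, with 1 of 12 lower. T and NK cell markers summed to 12.3 to 25.8 TPM on letrozole and 46.96 to 48.7 TPM untreated, with 6 of 9 lower, and proliferation markers to 29.8 to 33.04 TPM on letrozole and 79.3 to 84.4 TPM untreated, with 7 of 8 lower. Muscle markers summed to 26621 to 29445 TPM on letrozole and 5756 to 18942 TPM untreated, with 12 of 12 above 0 and none past the threshold. Their part in the result was not tested.

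**Figure D4:**
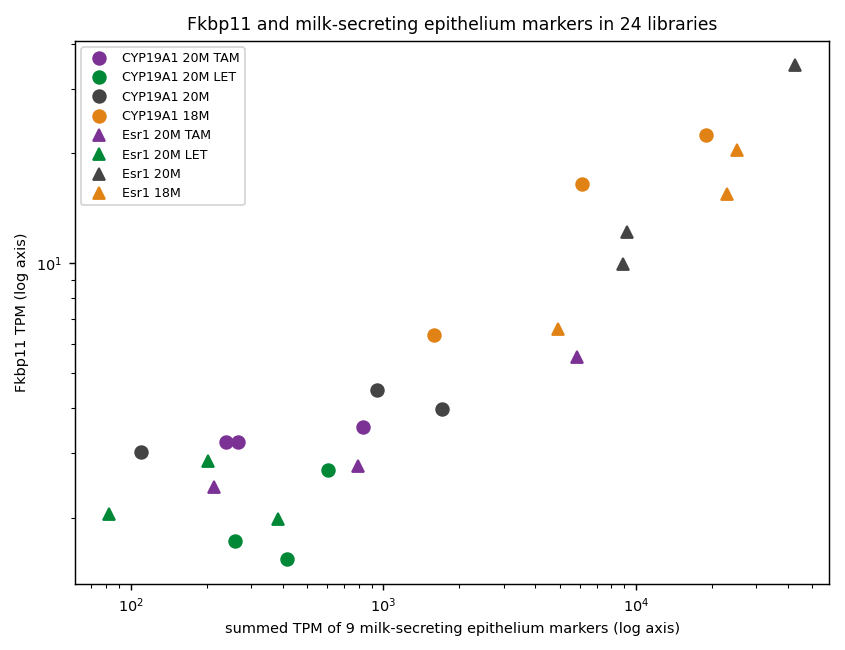
Fkbp11 (TPM, log axis) against the summed TPM of 9 milk-secreting epithelium markers (log axis) in 24 libraries, coloured by condition, circles for CYP19A1 and triangles for Esr1. The library highest in Fkbp11 (34.89 TPM) is also highest in the markers (42692 TPM), and the letrozole mice of both lines lie at the low end of both. Some other mice are as low in the markers, among them replicate 3 of untreated CYP19A1 mice of 20 months (109.96 TPM) and replicate 3 of Esr1 mice on tamoxifen (213 TPM).

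With tamoxifen in the Esr1 line 1 of the 36 genes fell, among 0.838% of all genes that fell and 1.55% that changed. Fkbp11 had 2.78, 5.51 and 2.43 TPM in Esr1 mice on tamoxifen, against 9.93, 34.9 and 12.1 TPM untreated, a log2 difference of -1.98 ± 0.44 (SE, limma adjusted p = 0.0326). The groups were separate, but the call was lost without replicate 2 of the untreated mice (-1.45, adjusted p 0.122) and without replicate 1 or 3 of the tamoxifen mice (adjusted p 0.0902 and 0.158). The median over the 36 was -0.32, against 0.05 over all genes, and 13 genes were lower without overlap, among 6.98% of all genes. Sec61b had 18.96, 23.3 and 27.1 TPM on tamoxifen, against 39.7, 38.2 and 34.5 TPM untreated, and Ppib had 60.5, 86.7 and 70.2 TPM on tamoxifen, against 110.2, 97.6 and 99.7 TPM untreated. Neither passed (limma adjusted p = 0.0893 and 0.0726), although both were separate between the groups. Replicate 2 of the tamoxifen mice was high for Xbp1 (67.3, 126 and 59.9 TPM on tamoxifen, against 125, 192 and 117 TPM untreated), and without it Xbp1, Fkbp11 and Ppib passed as lower. That mouse also had the highest milk-marker sum of its group, 5874 TPM, against 213 and 793 TPM in the other tamoxifen mice. Milk-secreting markers summed to 213 to 5874 TPM on tamoxifen and 8871 to 42692 TPM untreated, with none of 9 past the threshold. T and NK cell markers summed to 15.2 to 21.4 TPM on tamoxifen and 46.96 to 48.7 TPM untreated, with 2 of 9 lower, and proliferation markers to 26.9 to 49.04 TPM on tamoxifen and 79.3 to 84.4 TPM untreated, with 4 of 8 lower. Muscle markers summed to 20899 to 28839 TPM on tamoxifen and 5756 to 18942 TPM untreated, with none of 12 past the threshold. The part of these markers in the result was not tested. With median-ratio scaling 7 of the 36 passed as lower and with the muscle covariate 6. The muscle level was 10.13 to 10.60 on tamoxifen and 8.26 to 10.04 untreated. Without overlap in that level, the covariate fit cannot separate muscle from tamoxifen. In a fit of the 2 groups alone, or with no filter on low values, none passed. The comparisons of tamoxifen and of letrozole with no drug share the untreated mice.

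In the CYP19A1 line tamoxifen changed none of the 36 past the threshold, among 0.16% of all genes (limma). Here 3 of the 36 and 846 of all genes had an unadjusted p under 0.05. The smallest p-values were those of Tmed3 (-0.50 ± 0.19, SE, adjusted p = 0.913), Fkbp2 (0.35 ± 0.14) and Edem1 (0.62 ± 0.30), the last a lectin that passes misfolded glycoproteins to degradation. Fkbp11 had 3.23, 3.22 and 3.54 TPM in CYP19A1 mice on tamoxifen, against 3.97, 4.49 and 3.03 TPM untreated, and the groups overlapped. The tamoxifen effect was not shown to differ between the lines. For that difference none of the 36 and none of the 19325 genes passed in limma (0% of genes; 9 of the 36 and 2021 genes had an unadjusted p under 0.05), and the smallest adjusted p of the 36 was 0.313 (Sec61b, 0.98 ± 0.29).

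With letrozole in the CYP19A1 line Tmed3 alone of the 36 fell, among 4 of all genes (0.0207%). Tmed3 had 19.4, 28.7 and 22.8 TPM in CYP19A1 mice on letrozole, against 47.4, 67.7 and 57.0 TPM in untreated CYP19A1 mice, a log2 difference of -1.25 ± 0.19 (SE, limma adjusted p = 0.0318). The groups were far apart. The call was lost without replicate 2 or 3 of the untreated mice (adjusted p 0.258 and 0.14), without replicate 1 or 3 of the letrozole mice (adjusted p 0.267 and 0.0506), with no filter on low values (0.0527) and in a fit of the 2 groups alone (0.252). The difference stayed between -1.39 and -1.12 under every one of these alternatives and the others run. The gene lies on chromosome 9 (89699203 to 89705043). In Esr1 mice Tmed3 had 28.1, 22.5 and 24.9 TPM on letrozole, against 34.8, 25.7 and 32.1 TPM untreated, which did not pass (-0.28 ± 0.19, SE, limma adjusted p = 0.366).

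None of the other genes passed. The median over the 36 was -0.26, against -0.10 over all genes, with 86.1% of the 36 and 72.8% of all genes below 0, and 9 genes were lower without overlap, among 8.51% of all genes, which is 9 of 36 beside 1644 of 19325. Pdia6 and Pdia4 had the next smallest p-values, with log2 differences of -0.63 ± 0.18 and -0.53 ± 0.18 (SE, limma adjusted p = 0.621 and 0.945). Hspa5 had 90.9, 100.2 and 54.3 TPM on letrozole, against 118, 97.4 and 92.8 TPM untreated, with replicate 3 on letrozole the lowest of all 24 libraries. Fkbp11 had 1.72, 2.7 and 1.54 TPM on letrozole, against 3.97, 4.49 and 3.03 TPM untreated, separate but with a log2 difference of -0.70 ± 0.44 (SE) that did not pass. Milk-secreting markers, already low in untreated CYP19A1 mice, summed to 260 to 607 TPM on letrozole and 109.96 to 1709.96 TPM untreated. Luminal markers summed to 69.4 to 319 TPM on letrozole and 350 to 473 TPM untreated, without overlap. The part of these markers in the values of Tmed3 and the other genes was not tested. The difference of the letrozole effects between the lines passed for none of the 36 and none of all genes (0%; limma; 3 of the 36 and 2277 genes had an unadjusted p under 0.05), with the smallest adjusted p of the 36 at 0.26 (Tmed3, -0.97 ± 0.27, SE).

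Set against each other, tamoxifen and letrozole gave no call among the 36 in either line. In the CYP19A1 line 0.248% of all genes passed, and in the Esr1 line 0.129% (limma). An unadjusted p under 0.05 was found for 13 of the 36 and 1950 of all genes in the CYP19A1 line. In the Esr1 line it was found for 1 of the 36 and 1475 of all genes. In CYP19A1 mice 34 of 36 genes had a difference above 0, tamoxifen minus letrozole, with a median of 0.36, against 0.16 over all genes, and 20 were separate, among 21.7% of all genes. Under median-ratio scaling 7 of the 36 were below 0. The smallest p-values were those of Tmed3, with 41.04, 35.2 and 43.3 TPM on tamoxifen and 19.4, 28.7 and 22.8 TPM on letrozole (0.74 ± 0.19, SE, limma adjusted p = 0.146), Fkbp2 (0.50 ± 0.14, adjusted p = 0.229) and Pdia4 (0.60 ± 0.18, adjusted p = 0.272). In Esr1 mice the median was 0.02, against 0.05 over all genes. Tmed3 (0.42 ± 0.19), Syvn1 (0.25 ± 0.14) and Xbp1 (0.46 ± 0.28, SE) had the smallest p-values there, with an adjusted p of 0.598 in limma at the least.

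The lines were compared at each stage to ask how the transgenes differ. In untreated mice of 20 months Tmed3 was higher in CYP19A1 mice and Fkbp11 lower, among 2.12% of all genes higher and 3.16% lower, 5.27% in either direction. Tmed3 had 47.4, 67.7 and 57.0 TPM in CYP19A1 mice, against 34.8, 25.7 and 32.1 TPM in Esr1 mice, a log2 difference of 0.87 ± 0.19 (SE, limma adjusted p = 0.0105). Fkbp11 had 3.97, 4.49 and 3.03 TPM in CYP19A1 mice, against 9.93, 34.9 and 12.1 TPM in Esr1 mice, a log2 difference of -1.85 ± 0.44 (SE, limma adjusted p = 0.0193). Neither pair of groups overlapped. The Fkbp11 call was lost without replicate 2 of the Esr1 mice (-1.32, adjusted p 0.0865) or replicate 1 or 3 of the CYP19A1 mice (0.0532 and 0.102), and the Tmed3 call without replicate 2 or 3 of the CYP19A1 mice (0.0559 and 0.0538).

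None of the remaining genes passed at 20 months. The median over the 36 was -0.26, against 0.02 over all genes. Without overlap, 16 genes were lower in CYP19A1 mice, among 13% of all genes, and 4 were higher (Atf4, Syvn1, Derl1 and Tmed3), among 8.55%. Of the 6 lectin chaperones and isomerases all were below 0 (median -0.43), and of the 7 degradation genes 5 were above 0 (median 0.03). Summed, the degradation genes had 147, 125 and 133 TPM in CYP19A1 mice, against 155, 78.5 and 130 TPM in Esr1 mice. The 78.5 TPM was that of the library with much ribosomal RNA. Xbp1 had 88.1, 86.9 and 77.8 TPM in CYP19A1 mice, against 125, 192 and 117 TPM in Esr1 mice, separate but short of the threshold (-0.74 ± 0.28, SE, limma adjusted p = 0.122). With median-ratio scaling 3 of the 36 passed as higher (Herpud1, Syvn1 and Tmed3) and 7 as lower, and in a fit of the 2 groups alone none passed. Milk-secreting markers summed to 109.96 to 1709.96 TPM in CYP19A1 mice and 8871 to 42692 TPM in Esr1 mice, with 2 of 9 lower. T and NK cell markers summed to 10.9 to 21.1 TPM in CYP19A1 mice and 46.96 to 48.7 TPM in Esr1 mice, with 6 of 9 lower, and proliferation markers to 28.3 to 40.4 TPM in CYP19A1 mice and 79.3 to 84.4 TPM in Esr1 mice, with 5 of 8 lower. Muscle markers summed to 18295 to 31434 TPM in CYP19A1 mice and 5756 to 18942 TPM in Esr1 mice, with overlap. The part of these markers was not tested.

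At 18 months none of the 36 passed between the lines, among 1.36% of all genes (limma). At this age 6 of the 36 and 1619 of all genes had an unadjusted p under 0.05. The median over the 36 was 0.24, against 0.06 over all genes, and 33 were above 0 in CYP19A1 mice. Sdf2l1 had 16.7, 14.5 and 8.66 TPM in CYP19A1 mice, against 6.08, 7.11 and 8.81 TPM in Esr1 mice (0.75 ± 0.22, SE, limma adjusted p = 0.139). Tmed3 had 52.5, 46.4 and 76.3 TPM in CYP19A1 mice, against 38.8, 41.1 and 35.6 TPM in Esr1 mice (0.56 ± 0.19, adjusted p = 0.223). Hyou1 followed (0.47 ± 0.18, adjusted p = 0.334). The Tmed3 groups were separate and the Sdf2l1 groups were not, because replicate 3 of the CYP19A1 mice lay within the Esr1 range. Without that library, which held little muscle, Sdf2l1 and Creld2 passed as higher in CYP19A1 mice.

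Under the drugs no gene of the 36 passed between the lines, among 1.01% of all genes on tamoxifen and 0.906% on letrozole (limma). An unadjusted p under 0.05 was found for 1 of the 36 in each, beside 1519 genes on tamoxifen and 1489 on letrozole. On tamoxifen the smallest p-values were those of Ppib (0.38 ± 0.14, SE, adjusted p = 0.433), Sec61b (0.40 ± 0.21) and Derl1 (0.34 ± 0.19). On letrozole they were those of Fkbp2 (-0.47 ± 0.14, SE, adjusted p = 0.193), Pdia4 (-0.36 ± 0.18) and Edem1 (-0.55 ± 0.30), and 32 of 36 were below 0, with a median of -0.18 against -0.07 over all genes, of which 65.03% were below 0. Averaged over the 4 conditions, Tmed3 was higher in CYP19A1 mice by 0.39 ± 0.09 on the log2 scale (SE, limma adjusted p = 0.0123), the only one of the 36 to pass, among 3.96% of all genes higher and 7.27% in either direction. This call held under all 32 alternatives run, 24 of them with a library left out, with an adjusted p of 0.0271 at most. The value mixes unlike conditions, since Tmed3 had 19.4, 28.7 and 22.8 TPM in CYP19A1 mice on letrozole, against 28.1, 22.5 and 24.9 TPM in Esr1 mice on letrozole, which overlap.

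**Figure D5:**
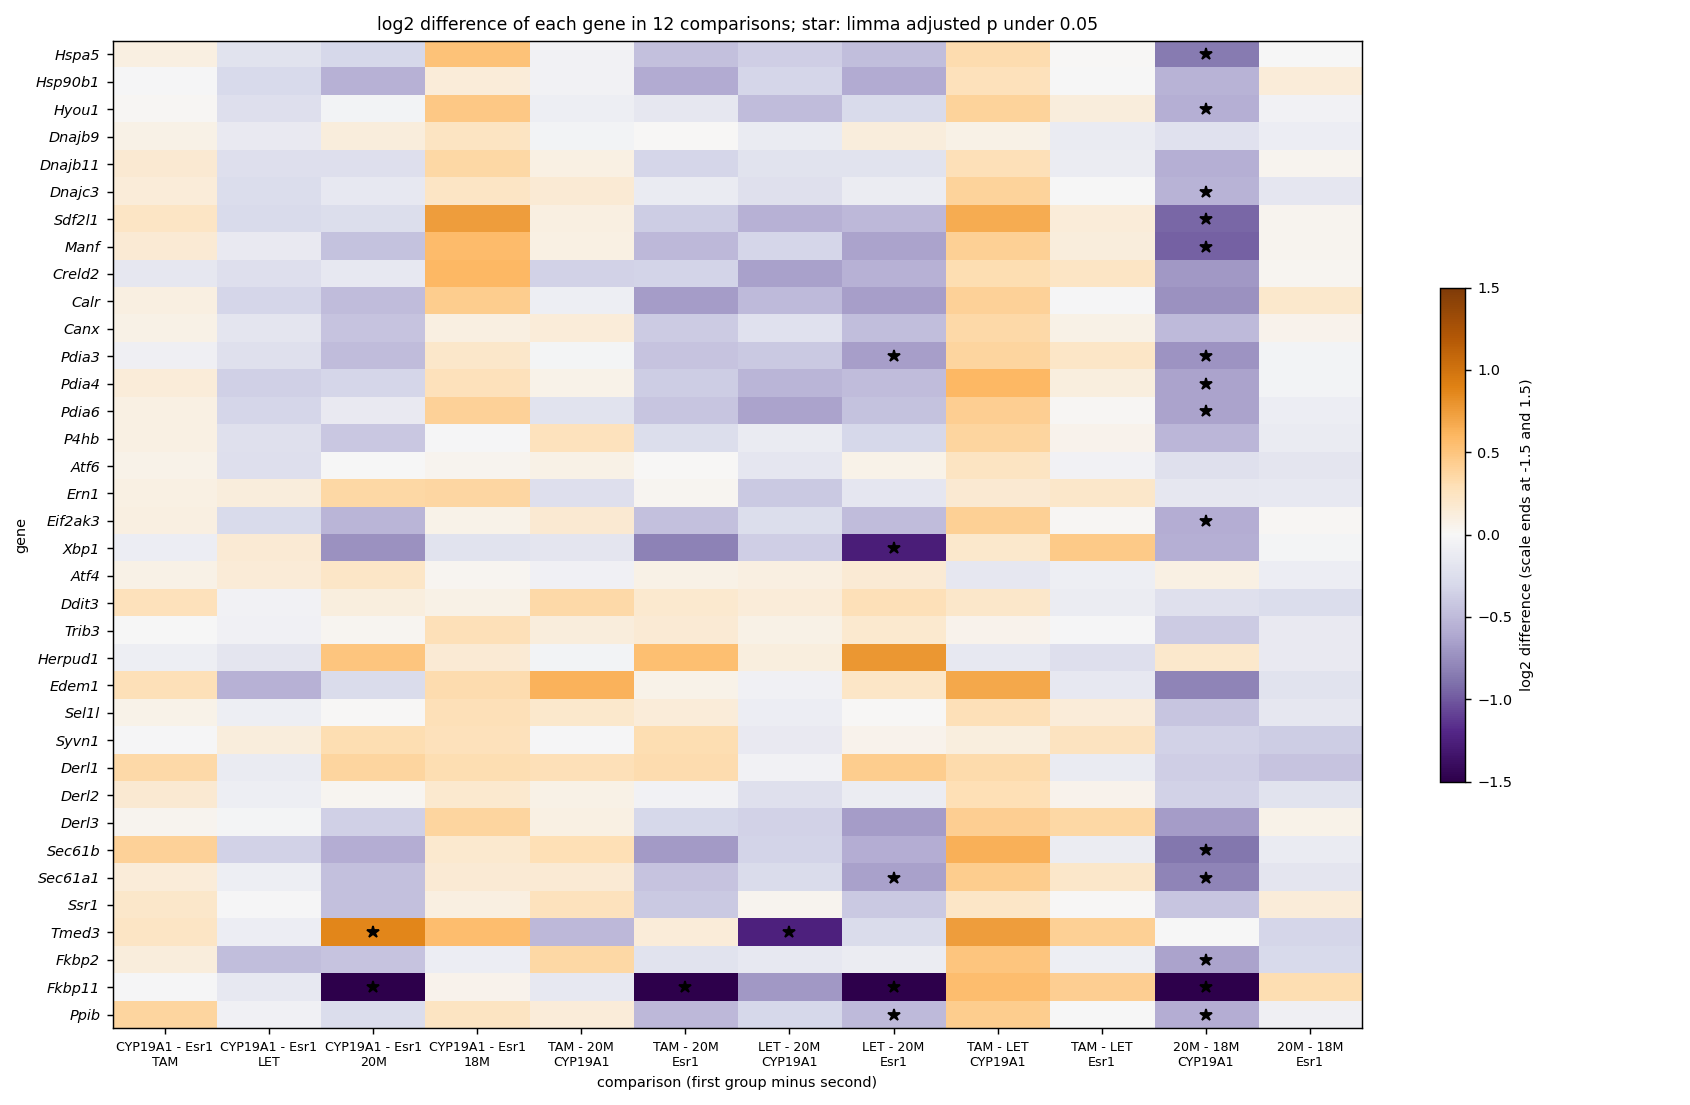
log2 difference of each gene (rows) in 12 comparisons (columns, first group minus second), with stars where limma's adjusted p was under 0.05; orange is higher and purple lower in the first group. Stars gather in the CYP19A1 age column (14) and the Esr1 letrozole column (5), and Tmed3 and Fkbp11 are the rows starred in comparisons of the lines.

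A measure that scaling cannot move is the ratio of genes within a library. The summed TPM of the 9 chaperones and the 6 lectin chaperones and isomerases was divided by that of the 7 degradation genes, a ratio formed after the values were seen and given without a test. It was 4.79, 4.53 and 4.87 in Esr1 mice on letrozole, 4.95, 5.87 and 4.68 in Esr1 mice on tamoxifen, and 7.60, 12.3 and 6.77 in untreated Esr1 mice. Both drug groups were below every untreated mouse, and the 12.3 belonged to the library with much ribosomal RNA. In the CYP19A1 line it was 4.66, 4.91 and 3.83 on letrozole, 5.02, 4.90 and 5.03 on tamoxifen, 5.73, 5.96 and 5.18 untreated, and 8.11, 8.76 and 5.27 at 18 months. The drug groups were again below the untreated mice, and at 18 months replicate 3 lay among the untreated mice of 20 months while replicates 1 and 2 were well above them. In the Esr1 mice of 18 months the ratio was 6.00, 7.20 and 8.14.

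The genes with the ERSE shown above were counted beside the others. In the CYP19A1 age comparison, of the 9 with the element 3 fell past the threshold (Hspa5, Dnajc3 and Pdia6) with a median log2 difference of -0.64, of the 22 with a promoter but no element 8 fell with a median of -0.55, and of the 5 other genes 3 fell with a median of -0.57. For letrozole in the Esr1 line none of the 9 passed (median -0.47), 4 of the 22 did (median -0.25) and 1 of the 5 (median -0.28). Herpud1, with the ERSE-II, was above 0 in both comparisons. The 3 sets of genes were not tested against each other.

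Other genes of the pathway, in lists chosen by function, give the setting. For age in the CYP19A1 line 6 of 18 further folding and glycan-processing genes fell and none rose, among them Prkcsh (-0.64 ± 0.13) and Ganab (-0.60 ± 0.14), the subunits of glucosidase II, which trims glycans for the lectin chaperones. Of 20 genes of the translocon, signal peptidase and oligosaccharyltransferase 7 fell, among them Ssr2 (-0.92 ± 0.21), a partner of the member Ssr1, and Stt3a (-0.77 ± 0.18), which attaches glycans. Of 14 further degradation genes 3 fell (Rnf5, Edem2 and Os9), and of 22 genes of transport between the endoplasmic reticulum and the Golgi 6 fell and 1 rose (Sar1b, 1.53 ± 0.34). Of 20 targets of ATF4 and CHOP 1 fell (Sars) and 1 rose (Chac1, 1.74 ± 0.50, SE), and 16 of the 20 were below 0, with a median of -0.38 against -0.23 over all genes. Chac1 encodes an enzyme that degrades glutathione. Of 12 cytosolic heat shock genes, which answer to another stress pathway, 1 rose (Cryab, 1.51 ± 0.34) and none fell, and of 13 other sensor and membrane-protease genes 2 fell. These counts are read against 6.45% of all genes lower and 3.01% higher. The lists were counted in this 1 fit and under no other scaling.

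For letrozole in the Esr1 line 4 of 20 translocon and glycosylation genes fell, none of 18 further folding genes changed, and 1 of 14 degradation genes fell (Edem2, -0.67 ± 0.17) while 1 rose (Ube2g2, 0.51 ± 0.15). Of the 20 ATF4 and CHOP targets 1 fell (Slc7a5, -1.59 ± 0.40, an amino acid transporter) and 1 rose (Vldlr, 0.81 ± 0.24), and 14 of the 20 were above 0. Creb3l1, a membrane-bound factor related to ATF6, fell (-0.59 ± 0.17, SE), and Cryab and Hspb1, small heat shock proteins, rose, in the comparison in which muscle markers were higher in sum on letrozole. None of the 22 transport genes passed. The shares of all genes for this comparison were 5.81% lower and 2.85% higher.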

How the data were processed

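RNA of mammary glands from 24 mice, 3 in each of 8 groups, had been sequenced from ribosomal-RNA-depleted, random-primed stranded libraries, per the labels' protocols. The authors deposited 1 table of TPM for 55487 genes and 24 libraries, in which each library sums to 1000000, so no read depth and no counting interval can be given. Aligner STAR 2.7.9a, quantifier RSEM 1.3.1, trimmer Trim Galore 0.6.5 and FastQC 0.11.9 appear in the submitters' processing notes with the build mm10, but not how each was run. Reads of near-identical genes can be shared between them by such tools.

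Values were put on the scale log2(TPM + 1) and fitted with R 4.3.3 and limma 3.58.1 for the 19325 genes that reached 1 TPM in 3 libraries or more, with all 24 libraries and 8 group means in 1 fit (trend and robust variance moderation). The SE is that of the fit, and fold changes of low genes are understated by the pseudocount of 1. P-values are two-sided and Benjamini-Hochberg adjusted over all genes within each of 16 comparisons, with a threshold of 0.05, and the script was tested on simulated data. Groups are said not to overlap when every value of one lies above every value of the other. The alternatives were a pseudocount of 0.1, no filter, median-ratio scaling and rescaling without the 100 most abundant genes. That rescaling also left all mitochondrial, Rn7s and ribosomal RNA genes out of the total. Further alternatives were a replicate block, a muscle covariate, only the groups compared, and each library left out in turn. Leaving out both 18-month libraries with little muscle was 1 more, chosen after seeing the data.

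The 36 genes and the other lists were chosen with earlier results of these data known, among them the fall of several chaperones with age in the CYP19A1 line, which is therefore no independent evidence here. In each comparison the genes named were those past the threshold (up to 10 by smallest p in full), or else the 3 with the smallest p, with up to 3 called genes from each other list; further genes are given by their level or difference to complete a role, or as named exceptions chosen after their values were seen. Promoters are RefSeq's for GRCm38.p6, and the motifs were searched as exact letters. The labels call the mice of a group biological replicates and say nothing of litters or extraction batches.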

Additional observations from a re-analysis of the deposited data

How the results depend on the processing

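Of the 24 results for single genes (a gene past the threshold in 1 comparison), none changed direction under any alternative, and 2 passed in all of them: the difference of the lines in Tmed3 averaged over the 4 conditions, and Fkbp11 with letrozole in the Esr1 line (adjusted p at most 0.0311 in limma). Counts of the 36 genes past the threshold moved as follows, and causes were not tested. For age in the CYP19A1 line, 14 became 11 with a pseudocount of 0.1, 5 with no filter, 1 with median-ratio scaling, 2 rescaled without the most abundant genes, 25 with the muscle covariate, 0 with only the groups compared, 22 without both 18-month libraries of little muscle, and 0 to 21 with a library left out. Median-ratio scaling turned all genes called for this comparison to 1416 higher and 386 lower, against 581 higher and 1246 lower. The number of all genes called is not given under the other alternatives. For letrozole in the Esr1 line, 5 became 3, 14, 14, 17 and 2 under the 5 settings from no filter to only the groups compared, and 1 to 4 with a library left out. For tamoxifen in the Esr1 line, 1 became 0, 7, 8, 6 and 0, and 0 to 3. In these comparisons of age and of each drug, the groups did not overlap in the muscle level. Their counts with the muscle covariate therefore cannot separate muscle from age or drug. For the lines at 20 months, 2 became 10 under both scalings, 9 with muscle, 0 with only the groups compared, and 0 to 2. For the lines averaged over the conditions, 1 became 3 under both scalings and 1 to 2. For the lines at 18 months, 0 became 2 with muscle and 0 to 2. For letrozole in the CYP19A1 line, 1 became 0 with no filter and with only the groups compared, and 0 to 1. The difference of the age effects became 1 (Creld2) with muscle. The other counts stayed at 0 in every alternative. Same-numbered mice did not deviate together (19 of 84 pairs correlated above 0.1, median r -0.0027). With the replicate number as a block, the counts were 11 for age in the CYP19A1 line, 4 for letrozole in the Esr1 line and 0 for letrozole in the CYP19A1 line, where Tmed3 missed the threshold (adjusted p = 0.0535 in limma).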
